A study of Homo sapiens with 15 samples.

Results

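The comparison sets LNCaP cells that carried a short hairpin RNA against PALI1 (group shPALI1, 3 libraries) beside LNCaP cells that carried one against JARID2 (group shJarid2, 3 libraries). These are 6 of the 15 RNA sequencing libraries of the series. LNCaP is an established human prostate cancer line with luminal, androgen-responsive features. All groups were wild type by their labels, grew in RPMI with fetal bovine serum and were infected with lentivirus for 4-5 days. The control group, pLKO, carried the vector without one of these hairpins, and its 3 libraries are given as the reference level. The other 6 libraries carried hairpins against G9a or SUZ12 and entered only the estimate of the spread and the check of the targeted genes. Each target had 1 hairpin name, so effects of losing the target and other effects of that hairpin cannot be told apart. The labels do not say that replicates were separate cultures, so p-values reflect only how much these libraries varied, and that variation may be technical. Genes were kept where RPKM, a read count divided by gene length and library size, was at least 1 in at least 3 of the 6 libraries, which left 11995 of 26443 genes with values.

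Polycomb repressive complex 2 (PRC2) methylates lysine 27 of histone H3, a mark of silent developmental genes. Its core holds EZH1 or EZH2, SUZ12, EED and RBBP4 or RBBP7. The core occurs in alternative assemblies. The form called PRC2.1 carries a Polycomb-like protein (PHF1, MTF2 or PHF19) together with EPOP or a PALI protein, and the form called PRC2.2 carries JARID2 and AEBP2. PALI1 is made from the LCOR locus and is specific to vertebrates. The direct comparison therefore asks which genes differ when an accessory subunit of one form is lowered from when an accessory subunit of the other is.

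The depth was 10.53 to 13.72 M reads in shPALI1 and 12.42 to 15.79 M in shJarid2, and a 2 kb gene at 1 RPKM rested on 21.1 to 31.6 reads. One library stood apart. Replicate 3 of shJarid2 correlated across genes with the other replicates of its group at r = 0.973 and 0.977, where these correlated with each other at 0.992 and the shPALI1 libraries at 0.989 to 0.991. Its deviations from the group mean correlated with transcript length (r = -0.398 with log2 length) and with GC content (r = 0.428) over 11730 genes with an annotated transcript. Counts of list members are therefore also given without it where they moved by over 1.5 times.

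The cells carried the marks of their label in both groups. Of 20 secretory and luminal genes of the prostate, the summed level was 1860 to 2070 RPKM in pLKO, 815 to 921 in shPALI1 and 1790 to 2260 in shJarid2, with KLK11 and NPY at 0 in all 9 libraries. The like sums of pLKO and shJarid2 hide members that moved apart. KLK3, which makes up much of the sum, fell in both knockdowns, and PLA2G2A rose under shJarid2, as given below. Of 10 immune markers, 8 stayed under 1 RPKM in every library and the T cell genes CD3E and CD3D were at 0. Summed levels were 2.5 to 3.48 in pLKO, 5.28 to 6.46 in shPALI1 and 3.81 to 5.13 in shJarid2. Endothelial markers summed to between 1.08 and 1.58 RPKM in the 9 libraries, with 6 of 7 under 1. Fibroblast markers summed to 4.71 to 5.31 in pLKO, 5.24 to 5.69 in shPALI1 and 1.88 to 2.4 in shJarid2, with 7 of 9 under 1. In whole cultures, a lower share of cells of one kind and less RNA per cell cannot be told apart.

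The targeted genes were first read in every group. The LCOR locus (chromosome 10, 96832282 to 96995959, GRCh38, plus strand) gives rise to LCOR and PALI1. C10orf12 is the name under which the table holds the sequence particular to PALI1. C10orf12 was at 0.667, 1.2 and 1.03 RPKM in the shPALI1 libraries, at 3.98, 3.16 and 1.36 in shJarid2 and at 3.77, 3.94 and 4.44 in pLKO. The 3 shPALI1 libraries lay below all others, though replicate 3 of shJarid2 came close to them. The difference was -0.91 ± 0.21 (SE) on the log2(RPKM + 1) scale (limma, adjusted p = 0.00142). JARID2 was at 6.7, 7.6 and 8.04 RPKM in shPALI1, at 1.7, 1.72 and 1.32 in shJarid2 and at 8.79, 8.18 and 8.9 in pLKO, and its groups did not overlap (1.71 ± 0.08, adjusted p = 2.59e-10). Under the name LCOR, which may include reads of PALI1, shPALI1 was at 2.8, 3.12 and 3.36 and shJarid2 at 4.42, 4.88 and 2.62 RPKM, groups that overlapped (-0.25, adjusted p = 0.151). Between the knockdowns LCOR passed without shJarid2 replicate 3 (-0.47, adjusted p = 0.00154). In pLKO it was at 4.2, 5.58 and 5.67 RPKM. Against pLKO, LCOR fell under shPALI1 (-0.58, adjusted p = 0.00608) and did not pass under shJarid2 (-0.33, adjusted p = 0.08). In the remaining groups, C10orf12 averaged 4.84 ± 0.33 RPKM in shG9a and 3.12 ± 0.55 in shsuz12 (SD, n = 3), and JARID2 8.06 ± 0.1 and 12.2 ± 0.46. LCOR averaged 4.24 ± 0.2 and 8.12 ± 0.65 RPKM there, SUZ12 18.9 ± 1.1 and 2.53 ± 0.22, and EHMT2, which encodes G9a, 0.955 ± 0.028 and 2.99 ± 0.059.

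Expression differed widely between the knockdowns. Of the 11995 genes, 64.5% passed at an adjusted p of 0.05: 3754 (31.3%) were higher in shPALI1 and 3980 (33.2%) were lower. At least 2-fold differences were found for 588 genes higher (4.9%) and 825 lower (6.88%) in shPALI1, on the log2(RPKM + 1) scale, which understates the fold of genes with low values. With a pseudocount of 0.1 in place of 1, these counts were 927 and 1062. Groups without overlap were found in 64% of genes (31% higher, 33% lower). Against pLKO, 43.4% of genes passed in shPALI1 (17.5% higher, 25.9% lower) and 52.6% in shJarid2 (25.1% higher, 27.5% lower). These comparisons share the pLKO libraries, so their values are only set side by side. Since most genes differed, a list of genes is read against these shares, and a list in which about 31.3% were higher and 33.2% lower is not set apart by its counts. A named gene is given with its RPKM in replicates 1, 2 and 3 of a group in that order, or with its shPALI1 minus shJarid2 difference on the log2(RPKM + 1) scale. The groups do not overlap for any named gene unless overlap is stated. Through the filter, 303 genes were kept with no shJarid2 library at 1 RPKM and 180 with no such shPALI1 library. Such genes had to differ, so their direction was set by the filter. Among the genes named below they are PRAMEF12, TUBA1A, KHDC1L, MMP10, TRIM49B, UGT2B7, CTGF, PCDHB10, PCDHB15, VIM, ZIC5, WNT5A, LEUTX, ZSCAN4, CCNA1, IFIT1, IFIT2, NLRC5, EGR1, COL3A1 and PHF19 on the shPALI1 side. On the shJarid2 side they are KRT19, PLA2G2F, PLA2G5, GJB1, CLDN8, MMP7, KRT14, KRT36, SNRPN, KCNQ1, VWF and MSMB. The median difference over all genes was -0.01.

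**Figure D1:**
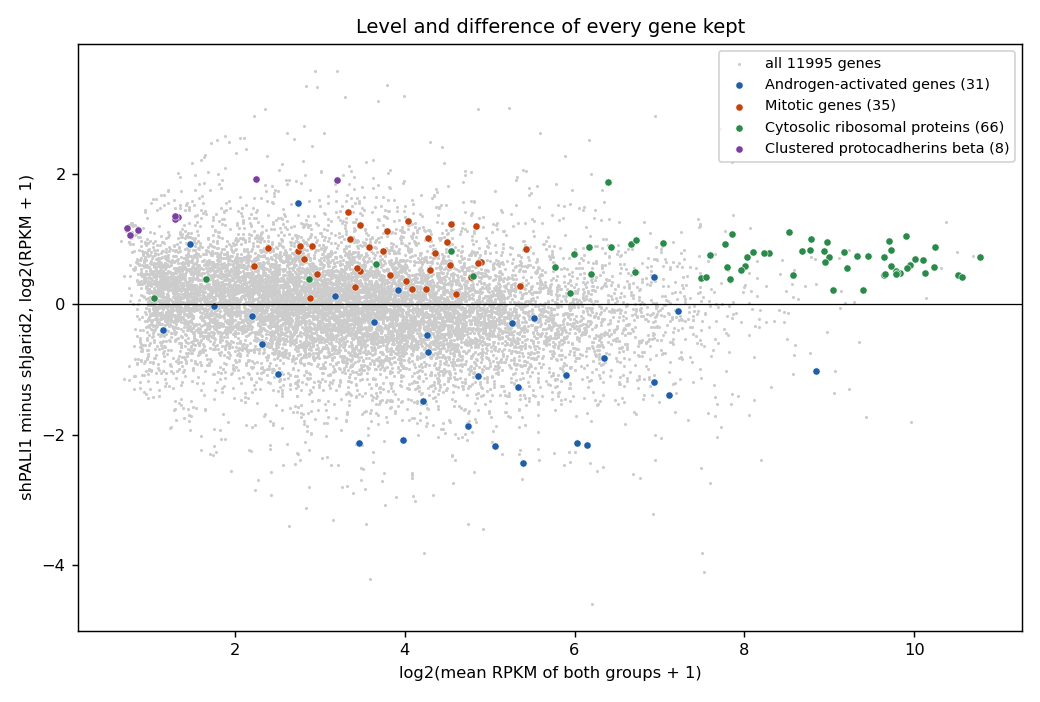
Difference between shPALI1 and shJarid2 (vertical axis, log2(RPKM + 1), positive where shPALI1 is higher) against the mean level of both groups (horizontal axis, log2(RPKM + 1)) for the 11995 genes kept, one point a gene, with 4 lists in colour. Most mitotic and ribosomal protein genes and the 8 protocadherin beta genes lie above 0 and most androgen-activated genes below it, in a cloud whose median is -0.01.

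The PRC2 genes differed beyond the targets themselves. In the core, 4 of 6 genes were higher in shPALI1 and 0 lower, with a median difference of 0.28. The histone-binding subunit gene RBBP4 was at 21.7, 22.8 and 22.1 RPKM in shPALI1, 8.26, 7.58 and 6.87 in shJarid2 and 16, 17.1 and 15.2 in pLKO. It rose under shPALI1 (0.44, adjusted p = 0.00017) and fell under shJarid2 (-1.0, adjusted p = 4.3e-08) against the control, so that the direct difference came to 1.44 ± 0.07. EZH2, the main methyltransferase subunit of dividing cells, was at 16.4, 16.7 and 17.1 RPKM in shPALI1 and 10.8, 10.1 and 10.6 in shJarid2 (0.62, adjusted p = 6.74e-07), beside 16.5, 16.1 and 14.1 in pLKO. RBBP7 differed by 0.37 and EED by 0.19 (adjusted p = 0.00012 and 0.0297). SUZ12, at 15.8, 16.7 and 17.6 RPKM in shPALI1 and 20.5, 19.7 and 15.1 in shJarid2, overlapped and did not pass (-0.13, adjusted p = 0.307). Leaving out replicate 3 of shJarid2 brought SUZ12 past the threshold (adjusted p = 0.0175). EZH1 overlapped and did not pass either (0.03 ± 0.095, adjusted p = 0.808).

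The accessory subunit genes moved in both directions. Of 7 PRC2.1 genes, 3 were higher in shPALI1 and 3 lower. The 7 include the targeted C10orf12, which is 1 of the 3 lower, and LCOR of the same locus. PHF19, 1 of the 3 higher, was kept through shPALI1 alone. MTF2, a Polycomb-like subunit that binds unmethylated CpG-rich DNA, was at 10.7, 11.8 and 12.2 RPKM in shPALI1, 5.59, 5.75 and 5.06 in shJarid2 and 8.49, 8.78 and 9 in pLKO. It lay above the control in shPALI1 (0.36) and below it in shJarid2 (-0.59), and both changes passed. C17orf96, which encodes EPOP, was at 7.07, 6.97 and 6.25 against 2.57, 2.74 and 3.64 RPKM (0.97, adjusted p = 2.8e-06). PHF1 went the other way, at 4.11, 3.63 and 4.49 against 5.53, 5.78 and 6.75 RPKM (-0.47), as did LCORL, the locus of PALI2 (-0.34, adjusted p = 0.0396), whose groups overlapped. PHF19 was at 1.03, 1.13 and 1.22 against 0.781, 0.783 and 0.892 RPKM (0.23, adjusted p = 0.0276). Of the PRC2.2 genes, AEBP2, which encodes the zinc finger partner of JARID2, was lower in shPALI1 (4.39, 4.21 and 3.94 RPKM) than in shJarid2 (7.39, 7.48 and 6.86), with no overlap (-0.67, adjusted p = 5.11e-06). AEBP2 fell under shPALI1 against pLKO (-0.49, adjusted p = 0.000226) and did not pass under shJarid2 (0.18, adjusted p = 0.0786).

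**Figure D2:**
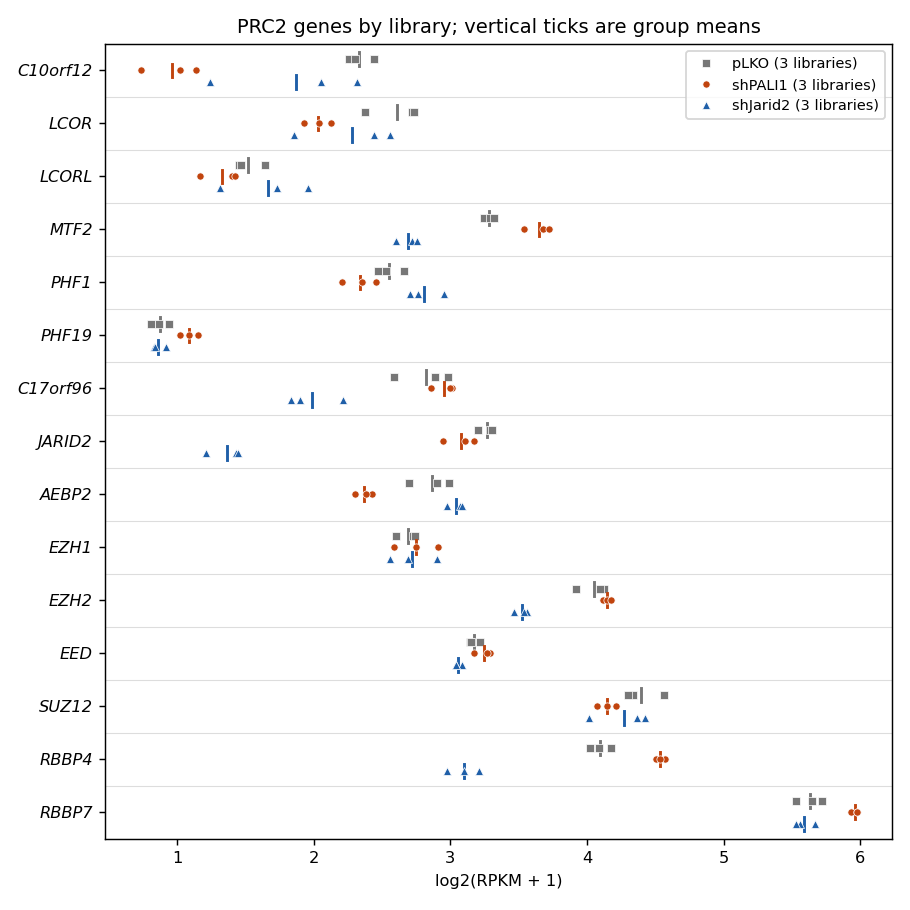
Levels of 15 PRC2 genes in log2(RPKM + 1) in each of 9 libraries (points) with group means (vertical ticks). C10orf12 and JARID2 are lowest in the group whose hairpin targets them, and RBBP4, MTF2 and C17orf96 are lower in the 3 shJarid2 libraries than in the 3 of shPALI1.

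Genes of PRC1, the partner complex, did not stand apart from all genes by their counts. Among 22, 8 were higher in shPALI1 and 4 lower, with a median of 0.095 that turned to -0.011 without shJarid2 replicate 3. The chromobox genes CBX6 (1.37) and CBX2 (0.99), whose proteins read the H3K27 mark, were higher in shPALI1. SCMH1 (-1.27) and the co-repressor gene BCOR (-0.92) were lower. Among 13 genes of H3K9 methylation, 7 were higher and 3 lower. CBX1, which encodes the heterochromatin protein HP1 beta, was at 44.3, 40.4 and 38.7 RPKM in shPALI1, 9.21, 9.38 and 8.97 in shJarid2 and 33.8, 32.2 and 31.5 in pLKO. Most of that difference of 2.05 ± 0.071 lay on the shJarid2 side (-1.72 against pLKO, and 0.33 for shPALI1). EHMT2 was at 3.97, 4.03 and 3.9 against 2.68, 2.42 and 2.87 RPKM (0.44, adjusted p = 0.000149). SUV39H2 (0.84) and ZNF644 (0.94) were higher in shPALI1 and WIZ (-0.63) lower. Of 12 demethylase genes, 6 were higher and 4 lower, with KDM1A at 1.20, KDM3B at 0.54, KDM4B at -0.85 and PHF8 at -0.53.

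The largest differences were of genes higher in shJarid2. KRT19, a keratin of simple epithelia (chromosome 17, 41523617 to 41528308, GRCh38, minus strand), was at 19.3, 21.1 and 25.4 RPKM in shJarid2 and at 0.515, 0.148 and 0.0495 in shPALI1, against 3.13, 2.6 and 2.39 in pLKO (-4.22 ± 0.15, adjusted p = 2.97e-11). The control libraries lay between the knockdowns (-1.60 against pLKO for shPALI1 and 2.62 for shJarid2). PLA2G2A, which encodes a secreted phospholipase, stood at 292, 291 and 459 RPKM in shJarid2, with replicate 3 highest, and at 21.7, 15.4 and 19.4 in shPALI1 (-4.11 ± 0.17). Its shPALI1 level did not pass against pLKO (0.23, adjusted p = 0.291), whereas under shJarid2 it rose by 4.35. ACPP, which encodes prostatic acid phosphatase, was at 33.7, 35.7 and 32.8 RPKM in shJarid2, 1.49, 1.47 and 1.49 in shPALI1 and 11.8, 13.1 and 11.8 in pLKO (-3.82 ± 0.074).

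Another phospholipase gene, PLA2G2F, was near 0 in shPALI1 (0.0697, 0.0802 and 0.0536 RPKM) and pLKO (0.119, 0.3 and 0.0947) and at 8.55, 9.55 and 13.2 in shJarid2. CAMK2N1, an inhibitor of calcium/calmodulin kinase II, reached 305, 322 and 387 RPKM in shJarid2 against 21.6, 22.2 and 25.4 in shPALI1 (-3.81), and most of this lay on the shJarid2 side (3.33 against pLKO, and -0.48 for shPALI1). The next genes were opposed around the control. TMEM45B differed by -3.45, with 54.6 ± 2.7 RPKM in shJarid2, 15.7 ± 1 in pLKO and 4.09 ± 0.48 in shPALI1. The water and glycerol channel gene AQP3 averaged 47.9 ± 6.5, 19.3 ± 2.8 and 3.74 ± 0.53 RPKM in the same order (-3.36), and the cholesterol sulfotransferase gene SULT2B1 20.3 ± 3.5, 5.37 ± 1.1 and 1.07 ± 0.34 (-3.36). The natriuretic peptide gene NPPC (-3.30), LRRC26, which encodes a subunit of large potassium channels (-3.22), and the gap junction gene GJB1 (-3.13) rose under shJarid2 and fell under shPALI1.

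The rule also named genes for having their 3 pLKO libraries wholly between the knockdowns, so this order is no finding. Higher in shPALI1 among them were FLNA, SERPINB5, UGT2B11, SNORD49B and TRIM49B, given below. Higher in shJarid2 among them were COLEC12, a scavenger receptor of the collectin family (-3.08), ALDH3B2, an aldehyde dehydrogenase (-3.01), the protease inhibitor gene SLPI (-2.96), SOAT1, which esterifies cholesterol (-2.94), and PSD4 (-2.92). COLEC12 was at 23.6, 22.1 and 24.6 RPKM in shJarid2, 7.28, 6.77 and 7.31 in pLKO and 1.78, 1.86 and 2 in shPALI1. SOAT1 was at 2.87, 2.75 and 3.2 RPKM in shPALI1, 30.8, 31.4 and 25.7 in shJarid2 and 9.73, 10.8 and 10.5 in pLKO.

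**Figure D3:**
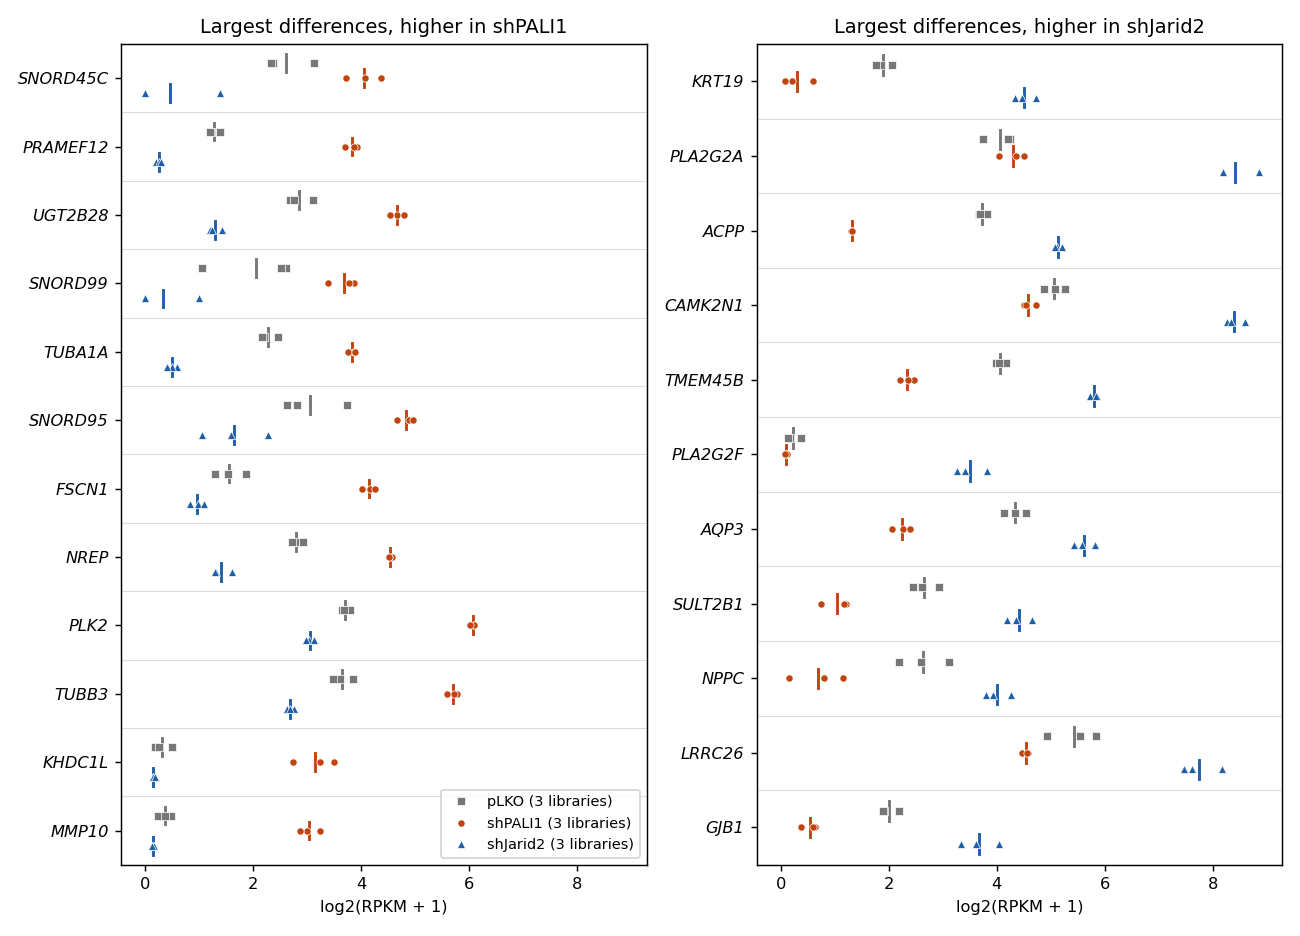
The 12 largest differences higher in shPALI1 (left) and 11 of the 12 largest higher in shJarid2 (right), as log2(RPKM + 1) in 9 libraries (points; vertical ticks are group means). In the left panel the shPALI1 points lie to the right of the shJarid2 points, in the right panel to the left, and no gene overlaps between these groups; most pLKO points lie between them.

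Among the genes highest in shPALI1 were genes of steroid conjugation, of the cytoskeleton and of families active in the early embryo. UGT2B28, which encodes an enzyme that conjugates androgens with glucuronic acid (chromosome 4, 69280499 to 69295050, GRCh38, plus strand), was at 24.2, 26.5 and 22.2 RPKM in shPALI1, 1.31, 1.67 and 1.36 in shJarid2 and 5.38, 5.79 and 7.58 in pLKO (3.37 ± 0.13, adjusted p = 3.92e-11). PRAMEF12, of a family expressed in early embryos and testis, was at 14.1, 13.6 and 11.9 RPKM against 0.142, 0.191 and 0.226, with pLKO at 1.32, 1.62 and 1.3 (3.58 ± 0.11). KHDC1L was at 10.3, 8.37 and 5.63 RPKM in shPALI1, 0.0997, 0.107 and 0.127 in shJarid2 and 0.128, 0.198 and 0.406 in pLKO (3.0). TRIM49B was at 4.95, 5.56 and 5.52 RPKM in shPALI1 and at 0.0465, 0 and 0.118 in shJarid2 (2.59). UGT2B, PRAMEF, KHDC1 and TRIM49 genes have near-identical neighbours, so reads may be shared among copies.

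Several of these genes shape the cell. TUBA1A, an alpha tubulin abundant in neurons, was at 13.5, 12.5 and 13.7 RPKM in shPALI1, 0.51, 0.412 and 0.324 in shJarid2 and 3.6, 3.5 and 4.5 in pLKO (3.33 ± 0.086). TUBB3, a beta tubulin also typical of neurons, was at 53.5, 51.8 and 47 against 5.2, 5.73 and 5.45 RPKM (3.0). FSCN1, the gene of fascin, which bundles actin, was at 17, 18 and 15.1 against 0.972, 0.778 and 1.12 (3.18) and FLNA, which encodes the actin cross-linker filamin A, at 210.1, 235 and 204 against 31.5, 29.4 and 24.5 (2.89). For FLNA the pLKO libraries, at 66.6, 57.4 and 62.4 RPKM, lay between. The kinase gene PLK2 was at 66.8, 67.1 and 63.9 in shPALI1 and 7.17, 6.88 and 7.73 in shJarid2 (3.02 ± 0.068), and NREP at 22.9, 21.9 and 21.8 and 2.04, 1.5 and 1.46 (3.13). MMP10, a matrix protease gene, was at 8.4, 7.03 and 6.25 RPKM in shPALI1 and near 0 in shJarid2 (0.108, 0.116 and 0.0913) and pLKO (0.184, 0.393 and 0.293). SERPINB5, which encodes maspin, was at 10.8, 10.9 and 12.1 against 0.792, 1.08 and 0.671, with pLKO between (2.73).

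The small nucleolar RNA genes SNORD45C, SNORD99 and SNORD95 were also among the largest differences, but on few reads. Another, SNORD49B, was named for its pLKO libraries lying between the knockdowns. At this depth SNORD45C, of 78 bases, had about 13, 13 and 21 reads in shPALI1 and 2, 0 and 0 in shJarid2. SNORD99 had 8, 15 and 14 reads against 0, 0 and 1, SNORD95 had 19, 26 and 21 against 2, 1 and 3, and SNORD49B had 2, 8 and 8 against 2, 0 and 0. SNORD49B differed by 2.62 (adjusted p = 0.000515), although its replicate 1 levels rest on 2 reads in each group.

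Androgen-activated genes separated the knockdowns. Androgens drive many genes that define luminal prostate cells. Of 33 listed genes 31 were kept, and 4 were higher and 22 lower in shPALI1 than in shJarid2, with a median difference of -0.82. Against pLKO, 3 rose and 26 fell under shPALI1, while 12 rose and 14 fell under shJarid2. CENPN was at 12, 10.6 and 10.8 RPKM in shPALI1, 52.4, 51.5 and 57.6 in shJarid2 and 39, 38.9 and 36.3 in pLKO (-2.18 ± 0.067). ELL2, an elongation factor gene, was at 2.69, 3.45 and 3.18 RPKM in shPALI1, 18.1, 17.9 and 14.7 in shJarid2 and 10.5, 11.1 and 11.3 in pLKO (-2.12). ACSL3, an acyl-CoA synthetase gene, was at 25, 23.4 and 26.7 RPKM in shPALI1, 122, 127 and 97.1 in shJarid2 and 75.2, 84.2 and 84.8 in pLKO (-2.15). These 3 genes fell under shPALI1 and rose under shJarid2. TRPM8, a cold-sensing ion channel gene, did not follow them: it was at 5.43, 6.39 and 5.74 RPKM in pLKO, rose to 11.7, 11.5 and 12.7 in shPALI1 and rose further to 75.8, 73.9 and 59.6 in shJarid2 (-2.44).

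KLK3, which encodes prostate-specific antigen, was looked at after its values were seen, as the best known target. It was at 297, 262 and 342 RPKM in shPALI1, 579, 534 and 729.9 in shJarid2 and 1160.0, 1129 and 1036 in pLKO, so it fell in both, and further in shPALI1 (-1.03 ± 0.12, adjusted p = 4.4e-06). The 250 bases before its start are shown because they hold, in capitals, AGAACA, a half-site bound by steroid receptors (chr19:50854665-50854914, GRCh38.p14, plus strand, RefSeq, 5′ to 3′).
KLK3: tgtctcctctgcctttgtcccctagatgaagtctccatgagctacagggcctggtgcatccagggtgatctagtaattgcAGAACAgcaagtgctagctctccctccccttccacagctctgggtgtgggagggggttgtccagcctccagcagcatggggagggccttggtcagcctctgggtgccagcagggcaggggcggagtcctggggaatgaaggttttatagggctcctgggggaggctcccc
AGAACA was searched on both strands and was present in 9.9% of 17290 promoters of this length, which include those of genes not kept. Among the listed genes kept, 22 had a RefSeq promoter and 1 held the word, KLK3 itself.

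Prostate secretory and luminal genes followed the same order. Of 20, 16 were kept, with 1 higher and 14 lower in shPALI1 (median -1.06). Under shPALI1 1 rose and 11 fell against pLKO, and under shJarid2 9 rose and 3 fell. Besides KRT19, PLA2G2A and ACPP above, KLK2 was at 22, 21.1 and 26.9 RPKM in shPALI1, 96.9, 92 and 127 in shJarid2 and 93.1, 89.3 and 88.4 in pLKO (-2.12 ± 0.11). KLK2 and KLK3 are close paralogs, so reads may be shared. KRT19 and MSMB reached 1 RPKM in no shPALI1 library and were kept through shJarid2 alone. Of 13 lineage transcription factor genes, 3 were higher and 8 lower in shPALI1. SPDEF, an ETS factor of luminal cells, was at 17.2, 18.3 and 19.2 against 65.8, 67.5 and 90.05 RPKM (-1.96), HOXB13 at 59.8, 60.6 and 64 against 150.1, 158 and 181 (-1.39) and SOX9 at 1.54, 1.89 and 1.96 against 5.72, 6.36 and 4.72 (-1.23). CREB3L4 differed by -0.95.

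Genes of enzymes that make and store lipids were mostly lower in shPALI1. Of 27 genes of cholesterol synthesis and uptake, 5 were higher and 19 lower than in shJarid2 (median -0.50). Against pLKO 0 rose and 20 fell under shPALI1, and 7 rose and 7 fell under shJarid2. The sterol methyl oxidase gene MSMO1 was at 10.6, 10.2 and 12.8 RPKM in shPALI1, 26.3, 26.9 and 29.3 in shJarid2 and 25.4, 25.8 and 23.3 in pLKO (-1.23 ± 0.077). IDI1 (-0.95) and SQLE (-0.94) differed in the same direction, and SQLE fell in both knockdowns (-1.28 and -0.35). Of 25 fatty acid genes, 5 were higher and 16 lower in shPALI1 (median -0.50). Against pLKO 3 rose and 18 fell under shPALI1, and 7 rose and 6 fell under shJarid2. SCD, which makes monounsaturated fatty acids, was at 25.2, 27.1 and 33.6 RPKM against 215, 196 and 153 in shJarid2 and 163, 166 and 152 in pLKO (-2.67). It did not pass under shJarid2 against the control (0.21, adjusted p = 0.137). The elongase gene ELOVL5 (-1.67) and the desaturase gene FADS2 (-1.88) fell under shPALI1 and rose under shJarid2.

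Sphingolipid genes were also mostly lower in shPALI1. Of 19, 4 were higher and 13 lower in shPALI1 (median -0.64). Under shPALI1 2 rose and 7 fell, and under shJarid2 11 rose and 3 fell. DEGS1, the desaturase that completes ceramide, was at 51, 44.1 and 53.1 RPKM in shPALI1, 329, 328 and 345 in shJarid2 and 203, 226 and 204 in pLKO (-2.74). CERS4, a ceramide synthase gene, was at 23.1, 19.7 and 21.9 against 105, 109 and 152 (-2.43). SGPP1 and the acid ceramidase gene ASAH1 differed by -1.25 and -1.14. They rose under shJarid2 (1.40 and 1.18) and did not pass under shPALI1 (0.15 and 0.04, adjusted p = 0.117 and 0.641).

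In the androgen metabolism list, 6 of 12 genes were higher in shPALI1 and 2 lower (median 0.46). UGT2B11 was at 85.6, 84.7 and 76.7 RPKM in shPALI1, 12.4, 11.6 and 13.2 in shJarid2 and 20.7, 22.4 and 26.9 in pLKO (2.64). Like UGT2B28 it rose under shPALI1 and fell under shJarid2, but the rule that named UGT2B11 required this order. Against pLKO, 9 genes of the list rose and 0 fell under shPALI1, and 5 rose and 3 fell under shJarid2. UGT2B7 (0.96, under 1 RPKM in all shJarid2 libraries) and HSD17B11 (1.19) were higher in shPALI1 as well. Androgens are known to lower several UGT2B genes in LNCaP cells.

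Cytoskeletal genes were spread widely in both directions. Of 31 actin and smooth muscle genes, 17 were higher in shPALI1 and 11 lower (median 0.32). Besides FSCN1 and FLNA, the actin scaffold gene PALLD was at 33.6, 34.9 and 28.6 RPKM against 5.45, 5.31 and 4.11 (2.49) and the calponin gene CNN2 at 66.4, 63.5 and 57.3 against 15.4, 15.3 and 15.4 (1.95). Among the lower members, singled out after their values were seen, TAGLN (-1.89) and LIMA1 (-1.49) fell under shPALI1 and rose under shJarid2 against pLKO, while CALD1 (-1.19) rose under shJarid2 and did not pass under shPALI1 (adjusted p = 0.839). Of 14 targets of YAP and TEAD, which respond to cell shape and contact, 6 were higher and 3 lower. CTGF, a matrix-associated signalling gene, was at 6.71, 5.87 and 6.56 RPKM in shPALI1, 0.243, 0.29 and 0.24 in shJarid2 and 0.0345, 0.0268 and 0.0366 in pLKO (2.55 ± 0.077, adjusted p = 4.59e-12). CTGF was therefore kept through shPALI1 alone. CYR61, a relative of CTGF, was at 17.2, 15.3 and 14 against 2.45, 2.88 and 3.05 RPKM (2.12). AJUBA was higher (1.38) and WWC1, which encodes an upstream part of the pathway, lower (-1.24).

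The 250 bases before the start of CTGF are shown for the TEAD word GGAATG, in capitals, which occurs 3 times (chr6:131951373-131951622, GRCh38.p14, minus strand, RefSeq entry CCN2, 5′ to 3′).
CTGF: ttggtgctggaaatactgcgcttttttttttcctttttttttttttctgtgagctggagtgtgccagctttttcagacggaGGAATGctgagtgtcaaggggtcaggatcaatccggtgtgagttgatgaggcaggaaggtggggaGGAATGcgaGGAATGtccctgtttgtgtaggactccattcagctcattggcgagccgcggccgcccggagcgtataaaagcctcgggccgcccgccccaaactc
The first bases of the matches lie at -169, -104 and -95 from the start. GGAATG on either strand was present in 10.4% of 17290 promoters of this length, which include those of genes not kept. Of 9 list members kept with a promoter it was present in 3: CTGF, NUAK2 and PTPN14. Of these, looked at after their values were seen, NUAK2 was lower in shPALI1 (-1.11) and PTPN14 overlapped and did not pass (0.09, adjusted p = 0.614), so members with the word did not share a direction.

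Junction genes of epithelia were lower in shPALI1 in 15 of 28 cases and higher in 4 (median -0.35). The tight junction genes CLDN4 (77.1, 70.8 and 66.7 against 214, 238 and 295 RPKM, -1.78), CLDN8 (-2.24) and CGN (-1.86) were lower, and the catenin gene CTNNB1 was higher (106, 101 and 101 against 58, 56.7 and 53.5 RPKM, 0.86). Among 15 mesenchymal and matrix genes, 7 were higher and 7 lower (median 0.31, and 0.074 without shJarid2 replicate 3). VIM, the intermediate filament gene of mesenchymal cells, was at 4.7, 5.62 and 3.82 RPKM in shPALI1 and 0.414, 0.414 and 0.714 in shJarid2 (1.91). Of the 15 genes, 4 reached 1 RPKM in no shJarid2 library, with VIM, MMP10 and COL3A1 among them, so their direction was set by the filter. THBS1 (-1.67) and the matrix protease gene MMP7 (-2.92) were lower in shPALI1, and both rose under shJarid2 against pLKO. The direction of MMP7, which reached 1 RPKM in no shPALI1 library, was set by the filter too. The list held as many members higher as lower, but this balance rests in part on genes kept through 1 group alone.

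The beta protocadherins, adhesion genes clustered on chromosome 5, were higher in shPALI1 for each of the 8 of 16 genes kept. PCDHB5 was at 12.3, 14.7 and 13.8 RPKM in shPALI1, 2.92, 3.33 and 2.45 in shJarid2 and 4.07, 4.34 and 4.99 in pLKO (1.91 ± 0.098), and PCDHB2 at 6.21, 7.7 and 5.7 RPKM in shPALI1, 0.934, 1.18 and 0.839 in shJarid2 and 2.16, 2.49 and 2.29 in pLKO (1.92). PCDHB15 (1.36) and PCDHB10 (1.18) followed. Of the 8, 6 reached 1 RPKM in no shJarid2 library, so they passed the filter only through shPALI1, and the count is no support for the group. Against pLKO, 8 rose under shPALI1, and 2 fell under shJarid2. Copies of the cluster are similar in sequence.

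Cleavage-stage and germline genes showed the same limit. Of 38 listed, 19 were kept, with 11 higher and 2 lower in shPALI1, and 8 of the 19 were kept through shPALI1 alone. ZSCAN4, a marker of the cleavage-stage embryo, was at 4.64, 5.67 and 4.44 RPKM in shPALI1 and 0.0563, 0 and 0.0358 in shJarid2 (2.52). LEUTX, a homeobox gene of the early embryo, was at 3.24, 3.14 and 2.71 RPKM in shPALI1 and was listed at 0 in all pLKO and shJarid2 libraries. CCNA1, a cyclin gene of the germline, was at 2.35, 2.5 and 2.18 RPKM in shPALI1, 0, 0.0886 and 0.0349 in shJarid2 and 0, 0.0273 and 0.0373 in pLKO. ZSCAN4, KHDC1L and CCNA1 did not pass under shJarid2 against pLKO (adjusted p = 0.378, 0.492 and 0.804), whereas PRAMEF12 fell there (-1.02, adjusted p = 3.89e-06).

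Genes of classes known as PRC2 targets moved in both directions. Of 39 HOX genes 10 were kept, with 1 higher and 6 lower in shPALI1 (median -0.53). Of the 10, 1 was kept through shPALI1 alone and 1 through shJarid2 alone, so the direction of these was set by the filter. HOXC6 was at 7.09, 6.54 and 6.46 RPKM in shPALI1, 14.9, 17.3 and 16 in shJarid2 and 11, 9.51 and 9.9 in pLKO (-1.15), and HOXC13 differed by -1.06. HOXC4 was at 0.606, 0.589 and 1.3 RPKM in shPALI1, 3.37, 4.23 and 4.21 in shJarid2 and 2.04, 2.14 and 2.63 in pLKO (-1.45). Against pLKO, 1 HOX gene rose and 6 fell under shPALI1, while 5 rose and 1 fell under shJarid2. Of 70 other developmental transcription factor genes 33 were kept, with 15 higher and 11 lower, and 5 of the 33 were kept through shPALI1 alone, ZIC5 among them. SOX4 was at 123, 124 and 118 RPKM against 21.5, 18.7 and 20.8 (2.53), with pLKO at 48.5, 49.5 and 41.9. ZIC2 was at 22.7, 21.5 and 20.1 against 4.42, 4.39 and 4.83 RPKM (2.02) and ZIC5 differed by 1.48, while TFAP2C was lower in shPALI1 (-1.43). The median of these developmental transcription factors, 0.07, turned to -0.061 without shJarid2 replicate 1. Of 8 genes reported as silenced by EZH2, 3 were higher and 5 lower, with CDKN2A at 1.58, WNT5A at 0.80 and CDH1 at -0.56. Of 11 imprinted genes, 2 were kept through shJarid2 alone, SNRPN and KCNQ1. Of the 11, 3 were higher and 5 lower, with DIO3 (1.04, 1 and 0.832 against 5.17, 6.34 and 7.3 RPKM, -1.88), SNRPN (-1.75), PHLDA2 (-1.51) and GNAS (-0.92) lower in shPALI1.

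Mitotic genes were higher in shPALI1 than in shJarid2, where all 35 kept fell below the control. Of 35 genes kept, 32 were higher and 0 lower, with a median difference of 0.69. Against pLKO, 0 rose and 19 fell under shPALI1, and 0 rose and 35 fell under shJarid2. CCNA2, the cyclin of S phase and G2, was at 13.4, 13.8 and 13.7 RPKM in shPALI1, 5.01, 4.03 and 4.45 in shJarid2 and 19.4, 20.4 and 18.1 in pLKO (1.42 ± 0.1). TOP2A, a DNA topoisomerase gene of dividing cells, was at 31, 31.1 and 33 RPKM in shPALI1, 14.3, 12.4 and 12 in shJarid2 and 27.8, 32.2 and 29.2 in pLKO (1.24), and it did not pass under shPALI1 against pLKO (adjusted p = 0.348). CCNB1 (0.85) and the kinesin gene KIF20A (1.22) were higher in shPALI1 too. Of 39 replication genes, 23 were higher in shPALI1 and 4 lower (median 0.36). Under shPALI1 2 rose and 24 fell against pLKO, and under shJarid2 1 rose and 35 fell. GINS1 (1.19) and the helicase gene MCM7 (0.79) were higher. CCND1, the cyclin of early G1, was lower in shPALI1 (36, 39.7 and 36.4 RPKM) than in shJarid2 (78.6, 76.8 and 67.2), below 108, 98.9 and 95.4 in pLKO, and the histone mRNA-binding gene SLBP was lower too (-0.76).

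Of 5 CDK inhibitor genes kept, 4 passed. CDKN2A was higher in shPALI1 (13.3, 13.9 and 10.8 against 3.35, 2.52 and 5.14 RPKM), and CDKN1A (-0.37), CDKN1B (-0.29) and CDKN2C (-0.46) were lower. Of 28 targets of p53, 20 were higher and 3 lower in shPALI1, with a median of 0.66. Under shPALI1 16 rose and 5 fell against pLKO, and under shJarid2 5 rose and 17 fell. ZMAT3 was at 17.8, 18.3 and 18.3 RPKM in shPALI1, 3.65, 3.34 and 2.65 in shJarid2 and 9.45, 10.7 and 11.8 in pLKO (2.19 ± 0.099). FAS, a death receptor gene, was at 9.23, 9.63 and 8.21 RPKM in shPALI1, 2.04, 2.73 and 2.42 in shJarid2 and 3.37, 3.46 and 3.03 in pLKO (1.56). The mitochondrial reductase gene FDXR was at 40.8, 36.8 and 33.6 RPKM in shPALI1, 11.9, 12.2 and 15.8 in shJarid2 and 30.4, 26.6 and 24.1 in pLKO (1.42). These 3 genes rose under shPALI1 and fell under shJarid2. PLK3 fell in both knockdowns (-0.33 and -1.55), further in shJarid2. CDKN1A, also a target of p53, was lower in shPALI1, as given above.

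Cytosolic ribosomal protein genes were higher in shPALI1 almost throughout. Of 66, 59 were higher and 0 lower, with a median of 0.66. Against pLKO 27 rose and 0 fell under shPALI1, and 0 rose and 31 fell under shJarid2. RPL15 was at 142, 125 and 125 RPKM in shPALI1, 30.7, 31.1 and 43.8 in shJarid2 and 82, 89.4 and 79.1 in pLKO (1.88 ± 0.11). RPL5 was at 552, 476 and 470.1 RPKM in shPALI1, 211, 209 and 278 in shJarid2 and 392, 413 and 365 in pLKO (1.11). RPS13 (1.0) and RPS4X (0.95) followed. Replicate 3 of shJarid2, the library that stood apart, had higher values of RPL15 and RPL5 than replicates 1 and 2, and without it 65 of 66 genes were higher in shPALI1. With each library corrected for transcript length and GC content, 61 were higher and 0 lower. These genes have many processed copies in the genome, so their reads may be shared. Of 53 genes of the respiratory chain, 3 were higher and 20 lower (median -0.18), but 10 and 14 without shJarid2 replicate 3 (median -0.08). NDUFA9 (-0.86), NDUFV2 (-0.80) and UQCRQ (-0.74) were lower in shPALI1.

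Interferon-stimulated genes were higher in shPALI1 in 13 of 23 cases kept and lower in 3 (median 0.42), at low levels. IFIT1 was at 1.54, 1.46 and 1.51 RPKM in shPALI1, 0.107, 0.0575 and 0.119 in shJarid2 and 0.257, 0.252 and 0.254 in pLKO (1.20). STAT2 was at 14.6, 15.7 and 16.2 against 7.3, 7.16 and 6.92 RPKM (1.02), and DDX58 (1.15) and IFIT2 (1.21) were higher. IFIT1 and 4 other members reached 1 RPKM in no shJarid2 library. Of 12 MHC class I genes 2 were higher and 5 lower (median -0.07). CALR (-1.36), TAPBP (-0.66) and ERAP1 (-0.51) were lower and NLRC5 (0.70) higher, and the median changed sign without shJarid2 replicate 3 (0.040).

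Stress programs were split. Of 33 ATF4 genes, 12 were higher and 9 lower, with MTHFD2 (1.49), ATF3 (1.64) and SESN2 (0.69) higher and the glutamine transporter gene SLC1A5 lower (17.2, 17.4 and 15.2 against 51.6, 56.4 and 63.7 RPKM, -1.72). Of 25 genes of the unfolded protein response, 8 were higher and 11 lower. EDEM1 (-1.66), DNAJB9 (-1.47) and HERPUD1 (-1.19) were lower in shPALI1. MANF, a secreted protein of the endoplasmic reticulum, was higher (128, 119 and 114 against 35.5, 35 and 50.8 RPKM, 1.57). Of 32 hypoxia and glycolysis genes, 5 were higher and 18 lower (median -0.28). The glucose transporter gene SLC2A1 (-1.18), NDRG1 (-1.86) and the mitophagy gene BNIP3 (-1.44) were lower, whereas its relative BNIP3L was higher (41.9, 39.3 and 39.5 against 14.9, 11.8 and 11.7 RPKM, 1.58). BNIP3 rose under shJarid2 against pLKO (0.89) and BNIP3L fell (-1.61).

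The smaller lists were mixed too. Of 9 genes in the AP-1 list, 3 were higher and 5 lower, with JUN (1.16), EGR1 (1.08) and ATF3 higher and JUNB lower (-1.40). EGR1 is in the list although it encodes no AP-1 subunit, and it was kept through shPALI1 alone. Another member, 1 of the 9, was kept through shJarid2 alone. Of 14 zinc transporter and metallothionein genes, 2 were higher and 6 lower. SLC39A6 was at 19.6, 19.6 and 21 RPKM in shPALI1 and 105, 109.9 and 85.9 in shJarid2 (-2.26). SLC30A4 was at 12.8, 14.7 and 17.9 against 98.1, 92.7 and 43.7 (-2.22), with shJarid2 replicate 3 near the pLKO level of 57.1 ± 3.9 (SD, n = 3). SLC39A8 (1.23) and SLC39A14 (0.56) were higher. Of 13 Notch genes, 6 were higher and 3 lower, with HES6 (1.52), NRARP (1.41), the ligand gene JAG1 (0.84) and the DNA-binding effector gene RBPJ (0.70) higher in shPALI1. JAG1 fell against pLKO under shPALI1 (-0.54) and under shJarid2 (-1.38). Of 18 replication-dependent histone genes 3 were higher and 5 lower, with HIST1H2AC (-1.02), HIST1H2BD (-0.80), HIST1H1C (-0.73) and HIST1H2BK (-0.48) lower. Of 5 S100 genes S100A11 was lower (-0.99) and S100A1 higher (0.55). The counts were 2 higher and 1 lower without shJarid2 replicate 3.

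**Figure D4:**
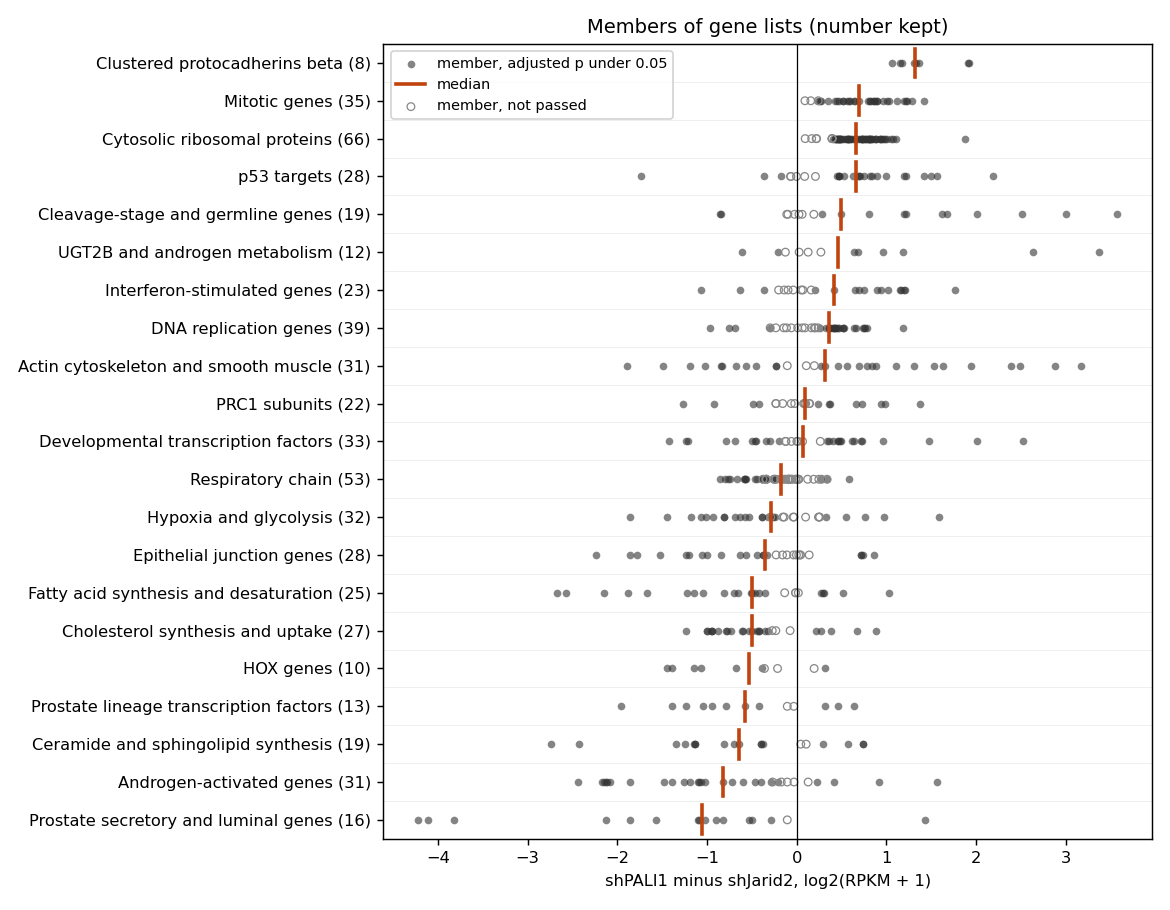
Difference between shPALI1 and shJarid2 for each member kept of 21 lists (points; filled where the adjusted p is under 0.05, open otherwise), in log2(RPKM + 1), with the list's median as a vertical bar. Medians run from 1.32 for the beta protocadherins to -1.06 for prostate secretory and luminal genes.

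**Figure D5:**
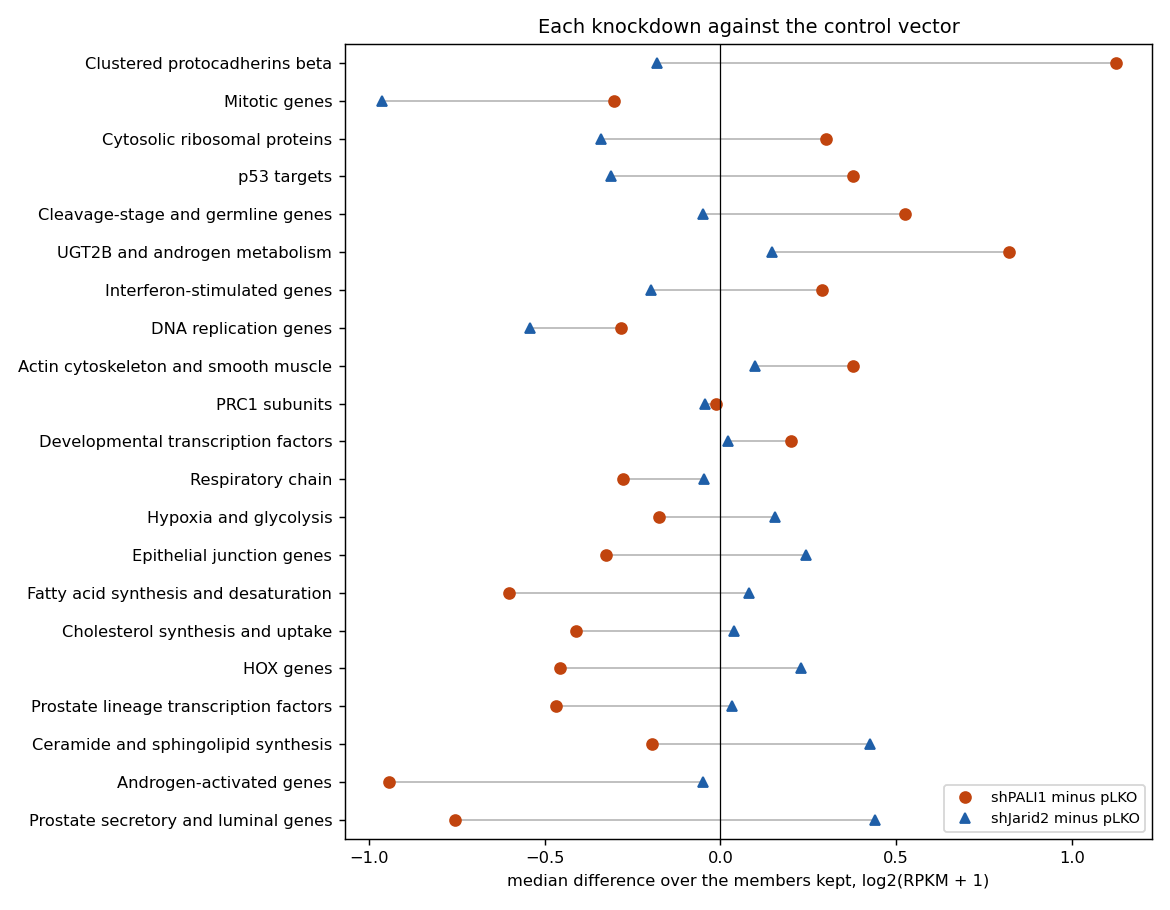
Median difference from pLKO over the members kept of the same 21 lists, for shPALI1 (circles) and shJarid2 (triangles), in log2(RPKM + 1). Both medians lie below 0 for mitotic and replication genes, and they lie on opposite sides of 0 for ribosomal protein and p53 target genes; both series use the same 3 pLKO libraries.

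Marker genes of other cell types moved with the groups in places. The basal keratin gene KRT14 was at 3.79, 3.41 and 4.86 RPKM in shJarid2 and near 0 in shPALI1 (0.0579, 0.0889 and 0.0445), and the basal integrin gene ITGA6 was higher in shPALI1 (0.45). ITGA6 fell against pLKO under shPALI1 (-0.40) and under shJarid2 (-0.85). Of 12 neuroendocrine markers 10 stayed under 1 RPKM. The synaptotagmin gene SYT4 was at 319, 316 and 339.7 RPKM in shPALI1, 566, 569.9 and 504 in shJarid2 and 188, 231 and 194 in pLKO (-0.75), and ENO2 differed by -0.39 (adjusted p = 0.0363) with overlapping groups. ENO2 did not pass without shJarid2 replicate 3 (adjusted p = 0.0566). Of the other markers that could be tested, VWF was lower (-0.55) and the collagen genes COL1A1 (0.79) and COL3A1 (0.85) were higher in shPALI1, and CD68 overlapped and did not pass (0.02, adjusted p = 0.909). Against pLKO, COL1A1 fell under shPALI1 (-0.41) and under shJarid2 (-1.20), whereas COL3A1 rose under both (1.24 and 0.39). The part of other cell types in the results was not tested.

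Genes higher in shPALI1 had transcripts of lower GC content. The median was 46.06% over the 3656 genes higher in shPALI1 with an annotated transcript, 51.01% over the 3922 lower and 48.22% over all 11730. Median transcript lengths were 3721, 3486 and 3504 bases. Deviations of libraries within groups also followed GC content, with r up to 0.428 in shJarid2 and 0.549 in pLKO, and their part in this difference was not tested. After correction of each library for length and GC content, 4086 genes were higher and 4216 lower. Promoter composition is not compared here, and 78.5% of the genes kept matched a RefSeq promoter.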

How the data were processed

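RNA sequencing of 15 LNCaP libraries (5 groups of 3) was deposited as a table of RPKM values that the authors made, with alignment by STAR to hg38, per the submitters' processing notes. The counting tool and gene models were not given in the sources used here. Differences were fitted with limma 3.58.1 (R 4.3.3) on log2(RPKM + 1), with an intensity trend, in 1 model over the 15 libraries, for the 11995 genes at 1 RPKM or more in at least 3 of the 6 libraries compared. P-values were Benjamini-Hochberg adjusted over these genes, with a call at 0.05. The script was tested on simulated data. Depth was estimated from the step that 1 read makes in short RNA genes, of which 92.7 to 95.6% of values came out whole within 0.05 reads. The table holds 28 names turned into dates, which were left unmapped. Transcripts came from GENCODE and promoters from RefSeq (GRCh38.p14), with Python 3.11.15 and pandas 2.3.3.

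Named genes were the targets, the 12 largest differences each way, the 5 largest each way with pLKO wholly between, the 4 smallest p in each of 44 lists and all PRC2 genes. The 12 and the 5 each way were taken among genes that passed, with a mean of at least 2 RPKM in the higher group and no overlap. Some genes that met the rule are not reported here. The members and lists were chosen with earlier results of these data known. Alternatives changed the pseudocount, filter, scaling, model, weights, block and replicates. Correcting libraries for GC content and transcript length was an alternative chosen after seeing the data.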

Additional observations from a re-analysis of the deposited data

How the results depend on the processing

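Counts of genes past the adjusted p, in each direction and comparison, stayed within 1.5 times their value under every alternative run. The count at least 2-fold higher in shPALI1 did not: it was 588, and 927 with a pseudocount of 0.1. Leaving out 1 library at a time gave 3402 to 3927 genes higher and 3615 to 4051 lower in shPALI1. The 6 libraries alone gave 3183 and 3440, no filter gave 4697 and 4326, and a mean of at least 3 RPKM gave 2878 and 3522. Genes higher made up 45 to 52.1% of those called across settings. Deviations of same-numbered libraries correlated at r = -0.311, 0.108 and -0.275, which cannot settle whether replicate numbers pair the libraries. With the replicate block, 3702 genes were higher and 3926 lower. Of 186 named genes kept, 183 were called. Of these, EED, ENO2, CDKN1B, S100A1, PHF19 and LCORL lost the call under at least 1 alternative, and 0 of 3136 alternative values reversed. SUZ12 and LCOR were called under some alternatives, including without shJarid2 replicate 3. List medians changed sign without 1 library for PRC1, developmental transcription factor, MHC class I and S100 genes and for the immune markers, of which 1 gene was kept. Promoter content, also over genes that differed at least 2-fold, is not given. Depth limits genes of low level and short length most.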

Other observations

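Small nucleolar RNA (snoRNA) genes, which guide the modification of ribosomal and other RNA, stood mostly to one side. This group and the families below were picked after their values were seen. Of 176 snoRNA genes kept, 100 (56.8%) were higher in shPALI1 and 1 (0.568%) lower, with a median difference of 0.97. Among the other 11819 genes, 30.9% were higher and 33.7% lower. The summed level of these genes was 2196, 2299 and 2392 RPKM in shPALI1, 983.1, 1017 and 1086 in shJarid2 and 1767, 1750 and 2168 in pLKO. The shPALI1 libraries were highest and those of shJarid2 lowest, with no overlap among the 3 groups. Their median length was 92.5 bases, and the median gene stood on 6.98, 9.98 and 12 reads in the shPALI1 libraries and on 4.99, 4.99 and 3.8 in those of shJarid2. Most snoRNA genes lie in introns of host genes, whose part in these values was not tested. With libraries corrected for transcript length and GC content, SNORD45C differed by 2.77 in place of 3.586 and SNORD99 by 2.563 in place of 3.346. SNORD95 differed by 2.52 in place of 3.195 and SNORD49B by 1.799 in place of 2.625. The snoRNA genes as a group were not counted under this correction. How many were kept through shPALI1 alone was not counted either.

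The simple epithelial keratin genes KRT8 and KRT18 were, like KRT19, higher in shJarid2 than in shPALI1. KRT8 was at 84.2, 74.5 and 72.5 RPKM in shPALI1, 140.4, 154 and 206 in shJarid2 and 90.7, 84.8 and 80.9 in pLKO (-1.09). Its partner KRT18 was at 70.0, 64.3 and 67.8 RPKM in shPALI1, 130.3, 138 and 172 in shJarid2 and 91.7, 81.7 and 77.2 in pLKO (-1.10). Unlike for KRT19, most of the difference lay on the shJarid2 side. Against pLKO, KRT8 differed by 0.94 and KRT18 by 0.80 under shJarid2. Under shPALI1 they differed by -0.15 and -0.30. Of 7 keratin genes kept of 55, 5 were lower in shPALI1, KRT80 was higher (0.68) and KRT10 overlapped and did not pass (0.06, adjusted p = 0.72). Of the 5, KRT19, KRT14 and KRT36 were under 1 RPKM in every shPALI1 library and were kept through shJarid2 alone, so their direction was set by the filter.

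Beta subunit genes of the sodium pump went apart. ATP1B1, its main beta subunit gene, was at 385, 346 and 357 RPKM in shPALI1, 58, 50.1 and 57.2 in shJarid2 and 342, 379 and 342 in pLKO (2.70 ± 0.076, adjusted p = 2.95e-12 by limma). The shJarid2 libraries lay far below the other 6, which overlapped. Another beta subunit gene, ATP1B3 (-0.79), was lower in shPALI1.

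Secreted phospholipases A2 were kept for 4 of 11 genes. Besides PLA2G2A and PLA2G2F, PLA2G5 was higher in shJarid2 (2.6, 2.08 and 3.35 RPKM) than in shPALI1 (0.25, 0.115 and 0.192) and pLKO (0.769, 0.762 and 0.816), while PLA2G12A differed by 0.23. PLA2G2F and PLA2G5 reached 1 RPKM in no shPALI1 library, so their direction was set by the filter. Tubulin genes were not moved as a family: of 11 kept, 5 were higher and 3 lower in shPALI1, with a median of 0.02. Besides TUBA1A and TUBB3, TUBB4A was at 17.7, 17.3 and 19.6 RPKM against 4.64, 5.17 and 5.61 in shJarid2 (1.65), with pLKO at 18.1, 13.2 and 13.9.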
